A study of Schizosaccharomyces pombe with 6 samples.

Results

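The 10 genes described here encode the central enzymes and regulators of the TOR, protein kinase A (PKA) and AMP-activated kinase (AMPK) pathways of the fission yeast *Schizosaccharomyces pombe*. They were chosen by name and systematic identifier from the 6988 loci of the count table. Their levels were not a criterion, but earlier results of these data were known. They are *tor1* (SPBC30D10.10c), *tor2* (SPBC216.07c), *tsc1* (SPAC22F3.13), *tsc2* (SPAC630.13c), *gad8* (SPCC24B10.07), *pka1* (SPBC106.10), *cgs1* (SPAC8C9.03), *cyr1* (SPBC19C7.03), *rst2* (SPAC6F12.02) and *ssp2* (SPCC74.03c). All 10 passed the filter on low counts, which kept 5774 loci.

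Fission yeast has a pair of TOR kinases with separate tasks. Tor2 is the catalytic subunit of TOR complex 1 (TORC1), which promotes growth when nitrogen and amino acids are plentiful and is restrained by the Tsc1–Tsc2 complex. Tor1 is the catalytic subunit of TOR complex 2 (TORC2), which phosphorylates the kinase Gad8. Glucose acts through the adenylate cyclase Cyr1, whose product cAMP releases the catalytic subunit Pka1 from the regulatory subunit Cgs1, and active PKA restrains the zinc finger transcription factor Rst2. Ssp2 is the catalytic subunit of AMPK, which responds to low energy and counters TORC1. Much of the control in these pathways is exerted on the proteins, so that the RNA levels reported here do not measure kinase activity.

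RNA was sequenced from vegetative log-phase cultures of h- wild-type cells and of h- *siw14*∆::HygMX cells, in which a hygromycin resistance marker replaces the gene of the inositol pyrophosphatase Siw14. Both strains were grown in rich YES medium at 30 °C, and poly(A)+ RNA from 3 biological replicates of each was made into stranded libraries. Each genotype carries a single strain number, so it was represented by 1 strain. No nutrient was withdrawn and the cultures were not compared across media.

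The 6 libraries held 12875286 to 14583056 counts on named loci. The *siw14* RNA had 2014, 2414 and 2377 raw counts across wild type against 13, 12 and 14 across *siw14*∆, as labelled. Wild-type replicate 1 stood apart. On the first principal component (59.2% of the variance) it lay at −32.4, the other wild-type libraries at −3.89 and −9.17, and the *siw14*∆ libraries between 13.6 and 16.1. Calls that were lost without this library are therefore given with and without it. Of the markers of the h- mating type, *mam1* ranged from 864.1 to 1800 normalized counts over the 6 libraries, *mfm2* from 11.3 to 588.5, *mam2* from 46.3 to 201.4, *mfm1* from 3.04 to 47 and *mfm3* from 9.27 to 25.3, and none was at 0. The markers of the opposite mating type were not near 0 in either strain, with 70.9 to 90 normalized counts for *map2*, 350.6 to 423.3 for *map3* and 820.8 to 1164 for *map4*. In the ASM294v3 annotation, 1755 of the 1758 bases of *map3* lie opposite *his6*, and all 337 bases of *mfm3* lie opposite *SPNCRNA.1381*. The strand setting of the counting is not stated, so *map3* and *mfm3* may share reads with these loci. None of the 5 h- markers and none of the 3 markers of the opposite mating type passed the test between the strains.

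The order of the 10 transcripts was first described per length, as RPKM, the count divided by exon length and library size. Exon lengths came from the ASM294v3 annotation, which is not the build of the counts. In wild-type cells, *gad8* stood highest at 67.6 ± 2.49 RPKM (SD, n = 3) and was followed by *pka1* at 55.5 ± 2.54, *rst2* at 49.4 ± 6.06 and *ssp2* at 42.2 ± 4.14. A second group held *tsc2* at 25.5 ± 3.27, *tor2* at 24.2 ± 3.38, *tor1* at 21.6 ± 2.71 and *cyr1* at 18.9 ± 3.37. Below them were *tsc1* at 13.8 ± 1 and *cgs1* at 3.3 ± 0.482 RPKM. The wild-type libraries of neighbors in this order overlapped from *pka1* through *rst2* to *ssp2* and from *tsc2* through *tor2* and *tor1* to *cyr1*. They did not overlap between *gad8* and *pka1*, *ssp2* and *tsc2*, *cyr1* and *tsc1*, or *tsc1* and *cgs1*. Both TOR kinase transcripts, which encode proteins of 2335 (Tor1) and 2337 residues (Tor2), were thus among the middle levels, and the transcript of the PKA regulatory subunit was the least abundant of the set. In *siw14*∆ cells the mean levels ran from 63.2 RPKM for *gad8* to 3.49 RPKM for *cgs1*, and the mean of *ssp2* at 42.9 RPKM stood above that of *rst2* at 40.9 RPKM, with overlapping libraries.

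**Figure D1:**
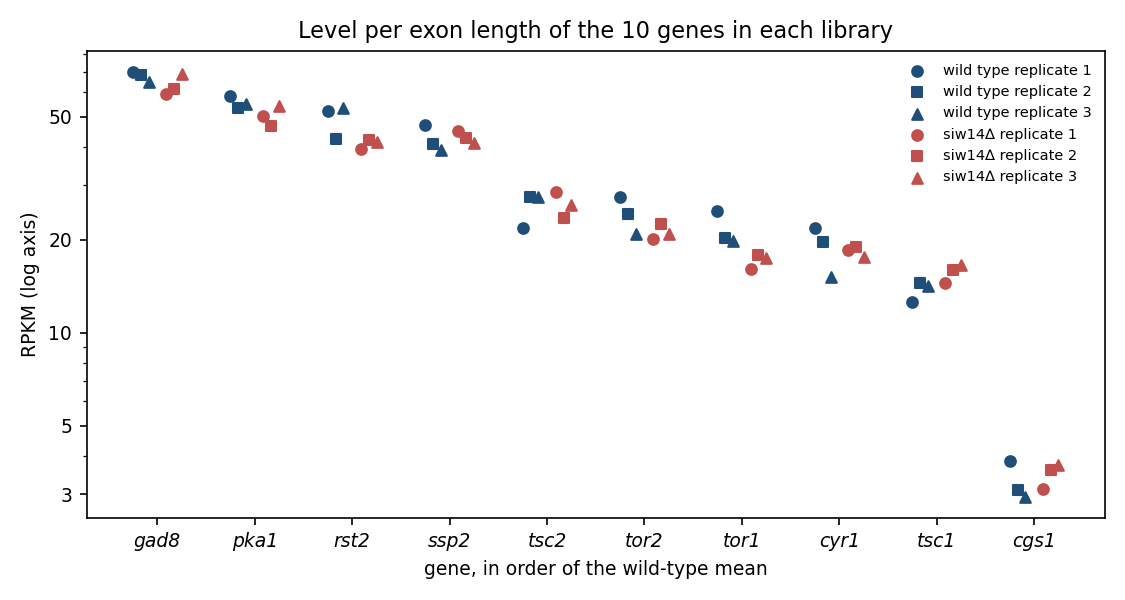
Level per exon length (RPKM, log axis) of each of the 10 genes in the 3 wild-type libraries (blue) and the 3 *siw14*∆ libraries (red), ordered by the wild-type mean, with 1 point for each library. The *gad8* points lie highest and the *cgs1* points, between 2.95 and 3.85 RPKM, lie apart from all others.

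Differences between the strains were small for the whole set. With p-values of edgeR's quasi-likelihood test adjusted over all 5774 loci by the Benjamini-Hochberg method, 1 of the 10 genes, *tor1*, was lower in *siw14*∆ cells, 0 were higher and 9 did not pass. Over all loci tested, 21.7% were called, 16.7% as higher and 4.99% as lower. The 10% called among these genes is under the share called in either direction and above the share called lower, but it is 1 gene. At an unadjusted p of 0.05, 2 of the 10 genes and 2373 of all loci passed edgeR's test. The 95% intervals of all 10 log2 fold changes lay within 2-fold in either direction. Their median half-width was 0.23 on the log2 scale, against 0.29 over all loci, so changes of 2-fold or more would lie outside the interval at each gene. The estimates were above 0 for 4 genes and below 0 for 6, with a median log2 fold change of −0.07 against 0.01 over all loci. As the RNA is from bulk cultures, fewer cells with a transcript and less of it per cell cannot be told apart.

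**Figure D2:**
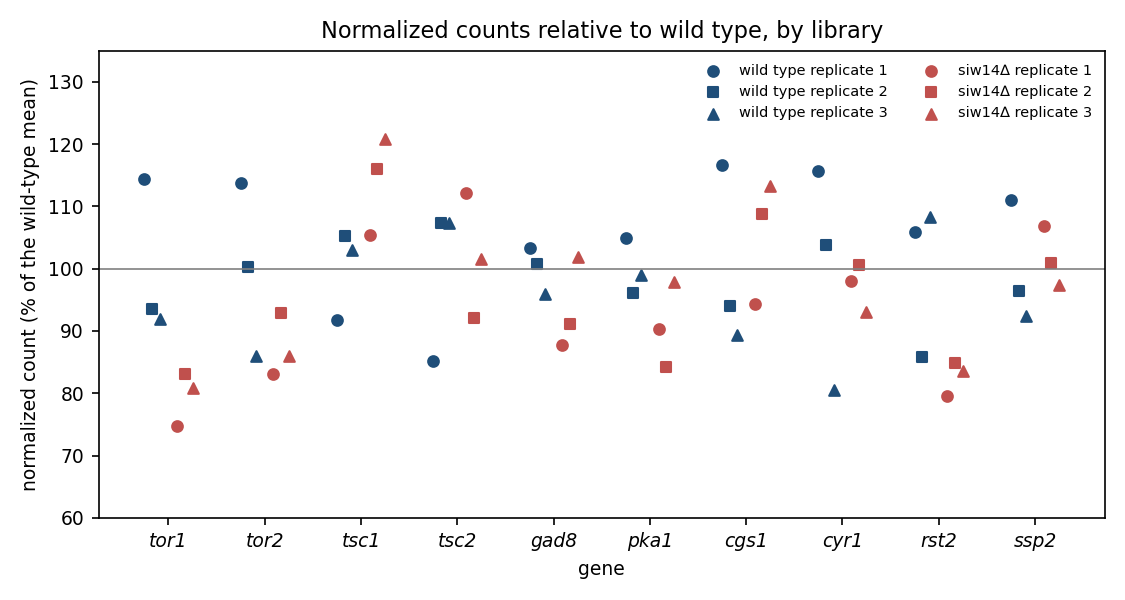
Normalized count of each gene in each library as a percentage of the mean of the 3 wild-type libraries, with 1 point for each library and a line at 100%. The 3 *siw14*∆ points lie below every wild-type point for *tor1* and *rst2* and above every wild-type point for *tsc1*, and the strains overlap at the other 7 genes.

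For the TOR kinases, normalized counts are counts scaled to a common effective library size. The *tor1* transcript had 2544, 2080 and 2044 normalized counts across wild-type replicates 1, 2 and 3, against 1661, 1848 and 1799 across *siw14*∆ replicates 1, 2 and 3. All *siw14*∆ libraries lay under all wild-type libraries, and wild-type replicate 1 lay well above the other 2. The means were 2223 ± 278.7 and 1769 ± 97.2 (SD, n = 3 each), a 0.80-fold level and a log2 fold change of −0.33 (standard error, SE, 0.10, 95% interval −0.55 to −0.10, adjusted p = 0.0444 by edgeR). The call stood just inside the threshold. It was lost without wild-type replicate 1 (−0.20, adjusted p = 0.0925 by edgeR) or wild-type replicate 3 (−0.35, adjusted p = 0.0544). Without *siw14*∆ replicate 1, 2 or 3, edgeR gave *tor1* a log2 fold change of −0.29, −0.36 or −0.35 and an adjusted p of 0.139, 0.111 or 0.116. It was kept without wild-type replicate 2 (−0.38, adjusted p = 0.0246 by edgeR). The whole table moved in the same refits: without wild-type replicate 1, 2 or 3 the loci called lower numbered 48, 717 or 44 in place of 288, and without any 1 of the *siw14*∆ libraries they numbered 1.

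The *tor2* transcript had 2750, 2424 and 2077 normalized counts across wild type against 2007, 2247 and 2079 across *siw14*∆. The strains overlapped, as wild-type replicate 3 lay within the *siw14*∆ range. Its log2 fold change was −0.20 (SE 0.11, 95% interval −0.43 to 0.04, adjusted p = 0.197 by edgeR), and −0.07 without wild-type replicate 1. The difference between the TOR kinases was examined as the ratio of *tor2* to *tor1* per exon length within each library, which does not depend on the library size. It was 1.12, 1.2 and 1.05 across wild type against 1.25, 1.25 and 1.19 across *siw14*∆. The ranges overlapped, since *siw14*∆ replicate 3 lay just under wild-type replicate 2. The mean log2 ratio (± SD, n = 3) was 0.16 ± 0.10 for wild type and 0.30 ± 0.04 for *siw14*∆, a difference of 0.14 (p = 0.2 by an exact two-sided permutation test, 0.4 when adjusted over the 4 ratios tested). With 3 libraries against 3, the smallest p this test can give is 0.1, so that none of the 4 ratios could have passed.

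The transcripts of the Tsc1–Tsc2 complex, the brake on TORC1, did not pass the test. The *tsc1* transcript had 741.6, 851.7 and 832.7 normalized counts across wild type against 853.0, 938.2 and 976.6 across *siw14*∆. The strains did not overlap, but wild-type replicate 2 and *siw14*∆ replicate 1 were almost level. Its log2 fold change was 0.19 (SE 0.10, 95% interval −0.04 to 0.42, adjusted p = 0.19 by edgeR). In the ASM294v3 annotation *tsc1* shares 1461 bases with *tho2* on the opposite strand, and, since no source used here states the strand setting of the counting, these genes may share reads. The *tsc2* transcript had 1297, 1634 and 1634 normalized counts across wild type against 1706, 1401 and 1545 across *siw14*∆. Its lowest library was wild-type replicate 1 and its highest *siw14*∆ replicate 1, with the other 4 between. The log2 fold change was 0.03 (95% interval −0.22 to 0.28, adjusted p = 0.872 by edgeR), and its sign depended on the scaling. The ratio of *tsc2* to *tsc1* was 1.72, 1.89 and 1.93 across wild type against 1.97, 1.47 and 1.56 across *siw14*∆. *siw14*∆ replicate 1 had the highest ratio and the other *siw14*∆ libraries the lowest, and the log2 difference was −0.16 (p = 0.4 by the exact permutation test, 0.533 adjusted).

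The *gad8* transcript, which encodes the kinase that TORC2 phosphorylates, was among the steadiest of the 10 across the wild-type libraries, with a coefficient of variation of 3.69%. It had 2557, 2493 and 2377 normalized counts across wild type against 2172, 2256 and 2523 across *siw14*∆. The third *siw14*∆ library lay within the wild-type range and the other 2 below it. The estimated log2 fold change was −0.10 (SE 0.09, 95% interval −0.29 to 0.10, adjusted p = 0.438 by edgeR). Shorter stretches than at *tsc1* lie opposite another counted locus at *gad8* (199 bases, *ada2*), *rst2* (194 bases, *fsv1*) and *tsc2* (160 bases, *SPAC630.12*).

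**Figure D3:**
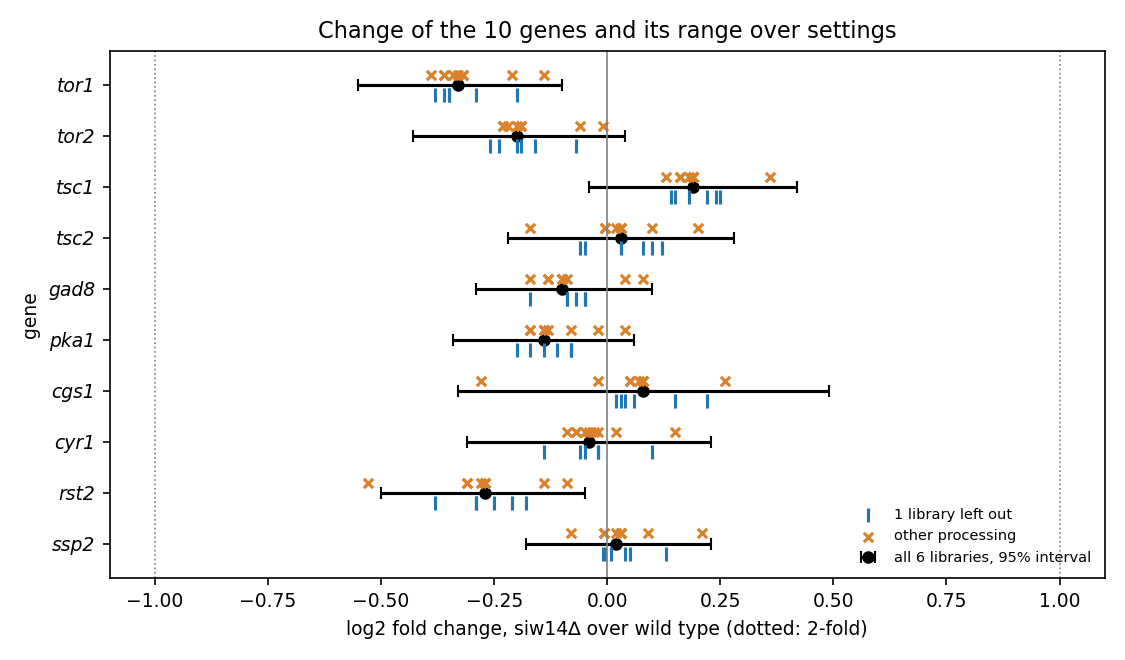
Log2 fold change from wild type to *siw14*∆ for the 10 genes, with its 95% interval (black), the estimates with 1 of the 6 libraries left out (blue ticks) and those under 9 other processing settings (orange crosses). Dotted lines mark 2-fold, and every black interval lies between them.

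In the glucose pathway, the *cyr1* transcript for adenylate cyclase had 1625, 1457 and 1131 normalized counts across wild type against 1377, 1413 and 1306 across *siw14*∆. The *siw14*∆ libraries lay together inside the wild-type range, which was the widest of the set with a coefficient of variation of 17.9%. The log2 fold change was −0.04 (95% interval −0.31 to 0.23, adjusted p = 0.822 by edgeR), and without wild-type replicate 1 it was 0.10. Cgs2, the phosphodiesterase that degrades cAMP, opposes Cyr1. The ratio of *cyr1* to *cgs2* was 0.809, 0.777 and 0.6 across wild type against 0.883, 0.747 and 0.738 across *siw14*∆. The ranges overlapped, with a log2 difference of 0.12 (p = 0.6 by the exact permutation test, 0.6 adjusted), which was −0.01 without wild-type replicate 3. In the annotation *cgs2* shares 496 bases with *ret2* on the opposite strand.

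The *pka1* transcript had 1572, 1438 and 1482 normalized counts across wild type against 1353, 1261 and 1466 across *siw14*∆. Only *siw14*∆ replicate 3 reached the wild-type range. On the log2 scale the estimate for *pka1* was −0.14 (SE 0.09, 95% interval −0.34 to 0.06, adjusted p = 0.262 by edgeR). The *cgs1* transcript for the regulatory subunit had 124.0, 99.9 and 95 normalized counts across wild type against 100.3, 115.7 and 120.4 across *siw14*∆. Both strains covered nearly the same range. With 91 to 127 raw counts, *cgs1* was the least precisely measured gene of the 10. Counting alone gives a coefficient of variation of 10.5% at its lowest count, and its log2 fold change of 0.08 had a 95% interval of −0.33 to 0.49 (adjusted p = 0.773 by edgeR). The ratio of *pka1* to *cgs1* per exon length was 15.1, 17.1 and 18.5 across wild type against 16, 12.9 and 14.5 across *siw14*∆. The catalytic subunit transcript was thus over 10 times as abundant per length as that of its inhibitor in each library. The log2 ratio differed by −0.22 between the strains (p = 0.2 by the exact permutation test, 0.4 adjusted), and *siw14*∆ replicate 1 lay within the wild-type range.

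The *rst2* transcript had 2692, 2184 and 2753 normalized counts across wild type against 2023, 2160 and 2126 across *siw14*∆. The strains did not overlap, although wild-type replicate 2 lay just above the highest *siw14*∆ library. The estimated log2 fold change was −0.27 (SE 0.10, 95% interval −0.50 to −0.05), which did not pass after adjustment (adjusted p = 0.0708 by edgeR). It passed without wild-type replicate 2 (−0.38, adjusted p = 0.0113 by edgeR) and by DESeq2 (−0.31, adjusted p = 0.0396), and it was −0.21 (adjusted p = 0.189) without wild-type replicate 1. Together with *tor1* and *tsc1*, *rst2* was 1 of 3 genes of the 10 whose strains did not overlap, against 46.9% of all loci.

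The *ssp2* transcript for the AMPK catalytic subunit had 1594, 1383 and 1327 normalized counts across wild type against 1533, 1448 and 1397 across *siw14*∆. All 3 *siw14*∆ libraries lay inside the wild-type range. The log2 fold change was 0.02 (SE 0.09, 95% interval −0.18 to 0.23, adjusted p = 0.86 by edgeR), and it was 0.13 without wild-type replicate 1.

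**Figure D4:**
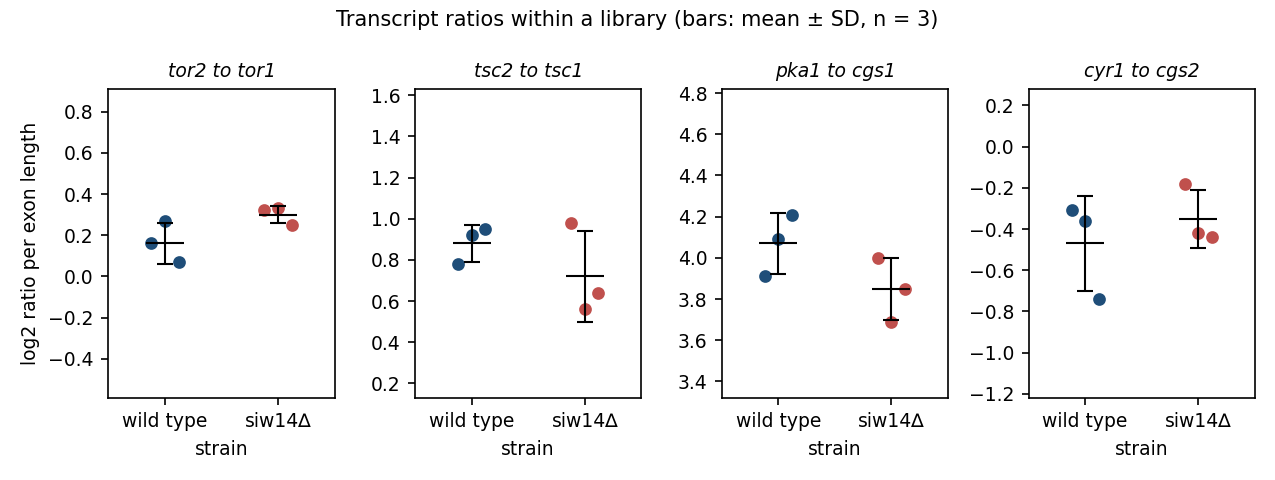
Log2 of the ratio of 2 transcripts per exon length within each library, for *tor2* to *tor1*, *tsc2* to *tsc1*, *pka1* to *cgs1* and *cyr1* to *cgs2*, with 1 point for each library and bars for the mean and SD of 3 libraries. Each panel spans the same width on the log2 axis, and the strains overlap in all 4 panels.

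The spread within a strain was not the same for both. In wild type the coefficients of variation of the 10 genes ran from 3.69% to 17.9%, and in *siw14*∆ cells from 3.38% to 9.84%. Wild-type replicate 1 was the highest wild-type library at 7 of the 10 genes, against 36.6% of all loci. It was the lowest at *tsc1* and *tsc2*, against 41.1% of all loci. Its part in the differences between the strains was measured only by leaving it out, which left 0 of the 10 genes called. Leaving out wild-type replicate 3 or any 1 of the *siw14*∆ libraries also left 0 called. For the other genes, the log2 fold change without wild-type replicate 1 was 0.15 for *tsc1*, −0.06 for *tsc2*, −0.05 for *gad8*, −0.08 for *pka1* and 0.22 for *cgs1*.

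Among the protein-coding loci whose levels ran most closely with *tor1* over the 6 libraries were *rpl2001* and *rps601*, which encode ribosomal proteins. Of 4562 loci with a mean of at least 100 normalized counts, these differed least from *tor1*, by a root mean square of 0.016 and 0.020 between centered log2 levels. Their log2 fold changes were −0.35 and −0.30. As closeness was taken over the libraries of both strains, fold changes near that of *tor1* follow from the choice. *rps601* did not pass the test (adjusted p = 0.0898 by edgeR).

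The other genes of the same pathways were taken from lists. Beside the 10 genes, 79 loci of 12 lists were tested, of which 8 were higher and 9 lower in *siw14*∆ cells, with a median log2 fold change of −0.14. Over all loci tested, 21.7% were called, 16.7% as higher and 4.99% as lower, and the median was 0.01. Calls among the 79 loci were split by abundance. The 8 called higher had a median of 259 normalized counts and the 9 called lower one of 1637, and over all loci the medians were 358.6 for those called higher and 3023 for those called lower. With each library's trend over abundance taken out, 0 of these 17 calls remained, and over all loci 0 were called higher and 1 lower. With the trend over GC content taken out, 3 of the 8 higher and 8 of the 9 lower calls remained. That setting called 4 of the 79 loci higher and 19 lower, against 864 and 898 over all loci. Library totals kept all 8 higher calls and 1 of the 9 lower calls and gave 14 higher and 1 lower. Over all loci they gave 1368 higher and 31 lower. Leaving out wild-type replicate 2 kept all 17 and gave 11 higher and 17 lower, against 1204 and 717 over all loci. The split between directions thus changed with the scaling and with this library, among the 79 loci and over all loci. Without wild-type replicate 1, 7 of the 8 higher calls and 0 of the 9 lower calls remained, with 785 higher and 48 lower over all loci. Leaving out wild-type replicate 3 kept 4 higher calls and 1 lower call, and leaving out *siw14*∆ replicate 1 kept 2 and 0. Over all loci the former gave 640 higher and 44 lower, and the latter 378 and 1. With *siw14*∆ replicate 2 or replicate 3 left out, 0 of the 17 were kept, and over all loci 0 were called higher and 1 lower. The part of abundance and of these libraries in the calls was not tested further.

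Of 5 TORC1 subunits, which include *tor2*, 1 was higher (against 16.7% of all loci), 0 were lower (4.99%) and 4 did not pass. The subunit gene *toc1* had 288.5, 390.3 and 392.4 normalized counts across wild type against 562.2, 591.2 and 580.9 across *siw14*∆. The strains were well apart, with a log2 fold change of 0.69 (SE 0.14, adjusted p = 0.0235 by edgeR). The Raptor gene *mip1* had −0.19 and *tco89* −0.28, and neither passed. Of 5 TORC2 subunits, only *tor1* passed, as lower (against 4.99% of all loci). The log2 fold change was 0.30 for *sin1* (adjusted p = 0.106 by edgeR, and 0.0428 without wild-type replicate 2), −0.13 for the Rictor gene *ste20* and −0.17 for *wat1*, which belongs to both complexes. The members of each complex thus had estimates on both sides of 0.

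Of the 3 genes of the TSC and Rheb list, none passed. Rheb, the GTPase that Tsc2 inactivates and that activates TORC1, had a log2 fold change of 0.02 at its gene *rhb1*. The amino acid branch to TORC1 held 15 genes of the Rag GTPases, Ragulator and SEA complex. There, 2 were higher (against 16.7% of all loci), 2 were lower (4.99%) and 11 did not pass. The Ragulator gene *lam1* (0.66) and *npr2* (0.57), whose product belongs to the module that inactivates the Rag GTPases, were higher, and the Rag GTPase gene *gtr2* (−0.31) and the Ragulator gene *lam2* (−0.28) were lower. Their adjusted p by edgeR ran from 0.0258 to 0.047. Without wild-type replicate 1, *lam1* still passed (0.53, adjusted p = 0.0265 by edgeR), while *npr2* (0.49, 0.0973), *gtr2* (−0.26, 0.117) and *lam2* (−0.22, 0.121) did not. With the GC trend taken out *npr2* was 0.29 (adjusted p = 0.116 by edgeR). The *lam1* and *lam2* loci share 803 and 1845 bases with *cyb502* and *spo6* on the opposite strand. None of the 4 genes of the TORC2 inputs and the Gad8 branch passed, with 0.39 for *rgp1*, −0.17 for *ryh1* and −0.03 for *ksg1*, which encodes the PDK1 kinase that acts on Gad8. With the GC trend taken out *rgp1* (0.55, adjusted p = 0.0219 by edgeR) and *ryh1* (−0.39, 0.0217) passed. *rgp1* also passed with library totals (0.56, adjusted p = 0.0356 by edgeR) and without wild-type replicate 2 (0.50, 0.0249). With the abundance trend taken out *rgp1* was 0.07 (adjusted p = 0.76 by edgeR).

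Of 12 effector genes downstream of TORC1, 1 was higher (against 16.7% of all loci), 2 were lower (4.99%) and 9 did not pass. *pab1*, for a regulatory B subunit of protein phosphatase 2A, was higher (0.30, adjusted p = 0.0356 by edgeR). *ppa1*, for a catalytic subunit of the same phosphatase (−0.33, adjusted p = 0.031), and *gaf1*, for a GATA transcription factor (−0.34, adjusted p = 0.0435 by edgeR), were lower. Without wild-type replicate 1, *ppa1* (−0.27, adjusted p = 0.0648 by edgeR) and *gaf1* (−0.24, 0.0924) did not pass, and with the GC trend taken out *pab1* did not (0.16, 0.119). Psk1, a kinase of ribosomal protein S6, had a log2 fold change of −0.27 at its gene *psk1*, and it passed with the GC trend taken out (−0.32, adjusted p = 0.0315 by edgeR). TORC1 restrains autophagy. The list of 12 core autophagy genes had 3 higher (against 16.7% of all loci), 0 lower (4.99%) and 9 that did not pass. The 3 were *atg16* (0.72), *atg3* (0.49) and *atg11* (0.31), the kinase subunit gene *atg13* had −0.29, and the list's median was 0.01. With the GC trend taken out none of the 3 passed edgeR's test (*atg16* 0.43, adjusted p = 0.058, *atg3* 0.25, 0.159, and *atg11* 0.19, 0.0949), and *atg13* was called lower (−0.35, 0.0333).

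Around Cyr1, 9 genes of the glucose receptor and cAMP turnover gave 1 higher (against 16.7% of all loci) and 0 lower (4.99%). It was *git7* with a log2 fold change of 0.72 (adjusted p = 0.0235 by edgeR), which rose from 154.7, 213.2 and 206.6 normalized counts in the wild-type to 317.5, 307.0 and 321.8 in the *siw14*∆ replicates. The gene is required for glucose signaling to adenylate cyclase. *git11*, for the G protein gamma subunit, had 0.40, *cap1*, for the cyclase-associated protein, −0.24 and *gpa2*, for the G protein alpha subunit, −0.23. With the GC trend taken out *gpa2* was called lower (−0.46, adjusted p = 0.024 by edgeR), *git11* was at 0.02 and *cap1* at −0.13. Without wild-type replicate 2 *cap1* (−0.29, adjusted p = 0.0487 by edgeR) and *gpa2* (−0.33, 0.0294) passed, and without wild-type replicate 1 *cap1* was −0.12. None of the 3 genes of PKA and its transcription factor passed, and all of them belong to the 10. Of 7 genes for AMPK, its kinases and the glucose repressor Scr1, 1 was lower (against 4.99% of all loci) and 6 did not pass. It was *cbs2*, the gamma subunit gene, with 3586, 2892 and 3032 normalized counts across wild type against 2491, 2573 and 2401 across *siw14*∆ (−0.35, adjusted p = 0.035 by edgeR). Without wild-type replicate 1 it was −0.23 and did not pass (adjusted p = 0.0704 by edgeR). *scr1* had −0.38, *sds23* −0.28 and *ckk2* 0.24, and the first 2 of these passed by DESeq2 (−0.41, adjusted p = 0.032, and −0.31, adjusted p = 0.0258). *sds23* also passed without wild-type replicate 2 (−0.35, adjusted p = 0.0282 by edgeR). Without wild-type replicate 1 *scr1* was −0.27 (adjusted p = 0.191 by edgeR) and *sds23* −0.17 (0.149). With the abundance trend taken out *scr1* was −0.53 (adjusted p = 0.0714 by edgeR) and *sds23* −0.06 (0.566).

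**Figure D5:**
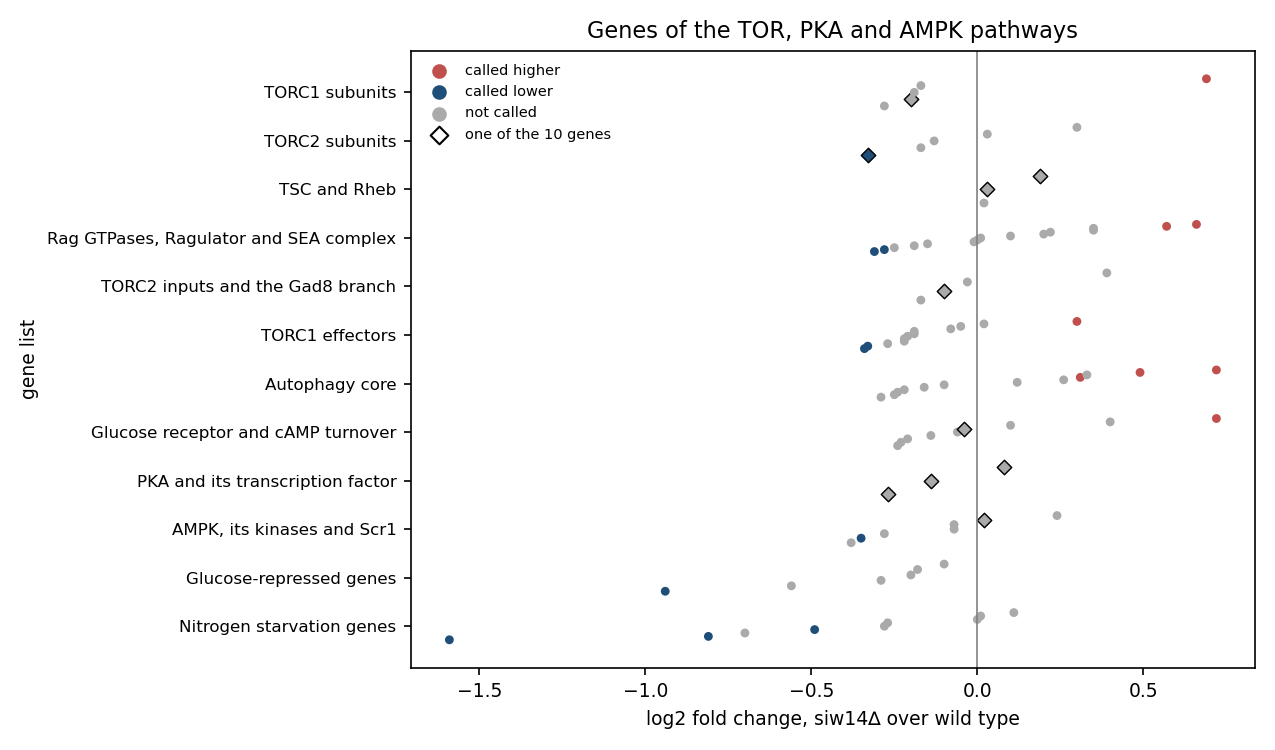
Log2 fold change from wild type to *siw14*∆ for each tested locus of the 12 pathway lists, with loci called higher in red, loci called lower in blue and the rest in gray. Diamonds mark the 10 genes, of which *tor1* is the 1 called locus, and *mei2* at −1.59 is the lowest point. A locus on 2 lists is drawn in both.

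Genes that these pathways control were read as well. The 6 glucose-repressed genes are kept low in glucose by PKA or the repressor Scr1. Of them, 1 was lower (against 4.99% of all loci), 5 did not pass, and 0 of the 6 estimates were above 0. The hexose transporter gene *ght5* had 1967, 1179 and 2335 normalized counts across wild type against 615.6, 1433 and 807.6 across *siw14*∆. The strains overlapped, and the log2 fold change was −0.94 (SE 0.29, adjusted p = 0.0438 by edgeR). It did not pass without wild-type replicate 1 (−0.88, adjusted p = 0.115 by edgeR), by DESeq2 (−0.98, 0.0896) or with the GC trend taken out (−0.81, 0.0519). *fbp1*, for the gluconeogenic fructose-1,6-bisphosphatase, had 75.7, 56.6 and 68.9 normalized counts across wild type against 58.9, 47.4 and 57.7 across *siw14*∆ (−0.29, adjusted p = 0.343 by edgeR). In the annotation *SPNCRNA.1324* lies opposite all 1710 bases of *fbp1*, with mean raw counts of 225.3 in wild type and 334.0 in *siw14*∆. As at *tsc1*, these loci may share reads. *gld1*, for a glycerol dehydrogenase, had −0.56 and the invertase gene *inv1* −0.18, without passing. *gld1* passed without wild-type replicate 2 (−0.73, adjusted p = 0.027 by edgeR).

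Of 9 genes that respond to nitrogen starvation, 3 were lower (against 4.99% of all loci), 0 were higher (16.7%) and 6 did not pass. They were the meiotic regulator gene *mei2* (−1.59, adjusted p = 0.025 by edgeR), *ste11*, for the transcription factor of sexual development (−0.81, adjusted p = 0.0315 by edgeR), and the vacuolar protease gene *isp6* (−0.49, adjusted p = 0.0362 by edgeR). *per1*, for an amino acid permease, had −0.27, and it passed by DESeq2 (−0.30, adjusted p = 0.0414). At *ste11*, wild-type replicates 1 and 3 had 1228 and 1040 normalized counts and replicate 2 had 583.9, against 518.0 to 578.4 in the *siw14*∆ replicates. At *mei2*, wild-type replicate 2 with 387.2 lay within the *siw14*∆ range of 348.9 to 397.5. These differences thus rested on 2 of the 3 wild-type libraries. Without wild-type replicate 1 none of the 3 passed edgeR's test, with −1.29 for *mei2*, −0.57 for *ste11* and −0.29 for *isp6* and adjusted p from 0.0709 to 0.0959. Leaving out wild-type replicate 3 or any 1 *siw14*∆ library also left none of the 3 called. Without wild-type replicate 2 all 3 passed, with −2.01 for *mei2* (adjusted p = 4.65e-06 by edgeR), −1.07 for *ste11* (0.000709) and −0.64 for *isp6* (0.00551). By limma-voom *mei2* did not pass (−1.35, adjusted p = 0.0552).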

How the data were processed

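The libraries came from poly(A)+ RNA of 6 cultures, 3 per strain. The authors mapped the reads to ASM294v2 with HISAT2 2.1.0, used SAMtools on the alignments and obtained counts per gene from HTSeq 0.10.0. The deposited table holds raw counts per locus, not normalized, and 5 of its lines name no locus. These lines were left out. They are empty for wild type and make up 35.8%, 31.6% and 34.7% of the *siw14*∆ column sums with these lines included. As they carry no name, what they count is not known, and they are not read as expression of any locus. A second deposited table, from DESeq2, holds the authors' fold changes and p-values and was not used.

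Loci were filtered with filterByExpr, scaled with TMM and tested with edgeR 4.0.16 (glmQLFit, glmQLFTest) under R 4.3.3. A locus was called at a Benjamini-Hochberg adjusted p of at most 0.05, taken over 5774 loci. The standard error is the log2 fold change divided by the root of F. Normalized counts are counts brought to 1 effective library size, the geometric mean of all 6. No covariate was used. Ratios took a pseudocount of 0.5 normalized counts. The fits were first tested on simulated data. The chi-square between replicates of a strain ran from 9.07 to 38.8 per degree of freedom, so each library counted as 1 replicate. Intervals cover the spread between these libraries.

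The 10 genes and the 14 lists of pathway and mating-type genes were chosen with earlier results of these data known. The genes to name were the 10, *siw14*, the genes with the smallest p of each list (up to 4) and the 3 protein-coding loci closest to a called gene in centered log2 CPM. Of these, 1 item is not reported here. Others that are named were chosen after their values were seen. Of 99 list symbols 98 matched, and *sat4* belongs to more than 1 gene and was left out. Of 6988 identifiers 6836 matched the RefSeq annotation of ASM294v3, which was used only for names, exon lengths, GC content and overlaps. As this is not the authors' build, no coordinates or sequences are printed.

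Alternatives were DESeq2 1.42.0, limma-voom (limma 3.58.1), DESeq2's size factors, library totals, filters of 1 count in any library or 10 counts in every library, a replicate block, each library left out, loess trends (span 0.3) over abundance or GC content taken out, an adjusted p of 0.01 and a pseudocount of 5.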

Additional observations from a re-analysis of the deposited data

How the results depend on the processing

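The count of loci called higher was 964. It was 0 with the abundance trend removed, 0 at an adjusted p of 0.01 and 0 to 1204 with 1 library left out. The count of loci called lower was 288. It was 703 by DESeq2, 495 with DESeq2's size factors, 31 with library totals only, 156 with the replicate block, 1 with the abundance trend removed, 898 with the GC trend removed, 1 at an adjusted p of 0.01 and 1 to 717 with 1 library left out. The split of calls therefore depends on the scaling. The median shift in log2 fold change over all loci was 0.177 with library totals and −0.119 with the abundance trend removed. It was −0.087 with the GC trend removed. Changes under these settings are relative to that shift.

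Of the 10 genes, 0 were called higher under every setting run. The number called lower was 1. It was 2 by DESeq2 and with the GC trend removed (*tor1* and *rst2*), 0 with library totals, the replicate block, the abundance trend or an adjusted p of 0.01, and 0 to 2 with 1 library left out. For *tor1*, library totals gave −0.14 (adjusted p = 0.192 by edgeR), the abundance trend −0.21 (0.147) and the replicate block −0.32 (0.07). Under the last, the same-numbered libraries did not deviate together (correlations of −0.264, 0.159 and −0.161), so the numbers are not taken to pair the cultures. For *rst2* the GC trend gave −0.53 (adjusted p = 0.0212 by edgeR).

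Some estimates changed sign with the setting, including those of *ckk2* (0.24) and *inv1* (−0.18). With DESeq2 and with its size factors *tsc2* was −0.0044, *ssp2* −0.0077 and *rhb1* −0.01. With library totals *gad8* was 0.08, *pka1* 0.04, *cyr1* 0.15, *wat1* 0.01, *ste20* 0.05, *ryh1* 0.0073, *ksg1* 0.14 and *inv1* 0.0013. With the abundance trend removed *gad8* was 0.04, *cgs1* −0.28, *cyr1* 0.02 and *ckk2* −0.08. With the GC trend removed *tsc2* was −0.17, *cgs1* −0.02, *ssp2* −0.08 and *rhb1* −0.01. With 1 library left out *tsc2* ran from −0.06 to 0.12, *cyr1* from −0.14 to 0.10, *ssp2* from −0.01 to 0.13, *rhb1* from −0.01 to 0.06 and *ksg1* from −0.10 to 0.07. None of these values passed the test. Among the log2 ratios, *tsc2* to *tsc1* became −0.37 with the GC trend removed, *pka1* to *cgs1* 0.18 with the abundance trend and −0.01 with the GC trend removed, and *cyr1* to *cgs2* 0.37 with the abundance trend removed. With 1 library left out the 4 differences ran from 0.09 to 0.19 (*tor2* to *tor1*), −0.29 to −0.08 (*tsc2* to *tsc1*), −0.30 to −0.15 (*pka1* to *cgs1*) and −0.01 to 0.21 (*cyr1* to *cgs2*). The causes were not tested. Depth limits mainly *cgs1*.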
